A study of Homo sapiens with 13 samples.

Results

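CCNC, TMEM167A, WDR36, GNG10 and WDR33 are 5 genes followed here in myeloma cells after knockdown of the transcription factor IRF4. They were chosen by their measured log2 ratios, which differed from uninduced at days 2-3 of knockdown in KMS12 cells and lay nearer to 0 at days 4-5. The platform annotation gave these symbols to 9 of the 15246 array features: 2 for CCNC, 4 for GNG10 and 1 each for TMEM167A, WDR36 and WDR33. Since the values of the 3 KMS12 windows (uninduced, days 2-3 and days 4-5) made the choice, they are given as a description without a test.

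The groups were H929 at day 4 (2 repeat arrays), SKMM1 at day 4 (1 array), and KMS12 uninduced (3 arrays), at days 2-3 (3 arrays), at days 4-5 (3 arrays) and at day 7 (1 array). All 3 lines are human myeloma cell lines, a cancer of plasma cells. On every array the culture with a doxycycline-inducible hairpin against IRF4 was labelled with Cy5 and the culture of the same line with a hairpin against luciferase (shluc) with Cy3, so that a transcript scarcer under the IRF4 hairpin has a negative log2 ratio. Induced cultures received doxycycline at 20 ng/ml, and the uninduced KMS12 cultures carried the same hairpins without it. KMS12 came in the culture series 1332 (days 3, 5 and 7), 1332b (days 2 and 4) and 2046 (days 2 and 4), while H929 and SKMM1 carried the 2046 hairpin. Each culture is a bulk population, so less of an mRNA per cell and fewer cells that express it cannot be told apart. Whether repeats were grown separately is not in the labels. The p-values therefore reflect only the spread among arrays, partly borrowed from other genes by the test, and that spread may be technical.

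IRF4 is the factor that plasma cells and myeloma cells depend on, and it binds DNA with partners of the ETS and AP-1 families. The 5 genes belong to different machines of the cell. Cyclin C (CCNC) is the cyclin of the Mediator kinase module, which carries CDK8 or CDK19 and tunes transcription by RNA polymerase II. TMEM167A is a small membrane protein of the Golgi, called kish in Drosophila, whose yeast relative serves the early secretory pathway. WDR36 is a WD repeat protein of the small subunit processome, which assembles the small ribosomal subunit in the nucleolus. GNG10 is a gamma subunit of heterotrimeric G proteins, and WDR33 is the subunit of the cleavage and polyadenylation factor that recognises the polyadenylation signal of pre-mRNA.

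The 250 bases before the annotated starts of the 5 genes are shown from the RefSeq promoter table (GRCh38.p14), each read 5′ to 3′ on the strand of its gene. The lowered genes were chosen for the same course, so that course is no sign of shared control. All 5 genes had an entry; CCNC had a second window with another start, which was searched but is not shown. Capitals mark matches on either strand to CCGGAAG, the core of many ETS factor sites.
TMEM167A, chr5:83077395-83077644, minus strand: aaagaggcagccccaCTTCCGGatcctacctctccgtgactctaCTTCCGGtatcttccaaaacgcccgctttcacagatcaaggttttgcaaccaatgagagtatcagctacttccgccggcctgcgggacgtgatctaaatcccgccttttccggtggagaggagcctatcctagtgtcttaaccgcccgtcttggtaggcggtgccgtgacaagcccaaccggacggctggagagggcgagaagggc
WDR36, chr5:111092098-111092347, plus strand: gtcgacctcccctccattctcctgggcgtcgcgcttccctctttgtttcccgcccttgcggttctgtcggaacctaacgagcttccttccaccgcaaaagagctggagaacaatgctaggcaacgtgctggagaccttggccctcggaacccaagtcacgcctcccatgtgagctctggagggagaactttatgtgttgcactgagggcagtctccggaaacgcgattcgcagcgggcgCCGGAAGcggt
CCNC, chr6:99568815-99569064, minus strand: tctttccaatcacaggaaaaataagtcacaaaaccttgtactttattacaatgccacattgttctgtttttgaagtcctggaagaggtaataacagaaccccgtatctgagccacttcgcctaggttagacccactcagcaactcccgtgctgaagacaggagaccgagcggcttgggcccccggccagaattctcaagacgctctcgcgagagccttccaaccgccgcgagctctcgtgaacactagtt
GNG10, chr9:111661355-111661604, plus strand: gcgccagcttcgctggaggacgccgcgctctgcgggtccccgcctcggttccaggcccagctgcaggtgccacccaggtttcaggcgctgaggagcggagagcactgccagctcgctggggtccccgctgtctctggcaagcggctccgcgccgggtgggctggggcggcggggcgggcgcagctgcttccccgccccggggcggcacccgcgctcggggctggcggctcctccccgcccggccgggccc
WDR33, chr2:127811172-127811421, minus strand: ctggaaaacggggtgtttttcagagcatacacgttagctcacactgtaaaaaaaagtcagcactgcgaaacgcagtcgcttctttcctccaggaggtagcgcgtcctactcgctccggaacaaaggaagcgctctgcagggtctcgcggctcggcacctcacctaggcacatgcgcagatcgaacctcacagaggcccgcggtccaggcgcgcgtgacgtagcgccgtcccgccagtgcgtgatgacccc
The ETS core occurred 2 times before TMEM167A, 1 time before WDR36 and 0 times before CCNC, GNG10 and WDR33, against 8.52% of the 35116 promoter windows of the same length with at least 1 match. The interferon-stimulated response element, searched as GAAA, any 2 bases and GAAA (3.02% of all windows), the ETS-IRF composite element, searched as GGAA, any 2 bases and GAAA (2.41%), and the E-box CACGTG (6.34%) had no match on either strand in any window of the 5 genes. The searches were independent of each other, so matches of different motifs could overlap. GC content was 79.2% before GNG10, 50.4% before CCNC in the window shown and between 57.6% and 60.0% before the others, with a median of 58.0% over all windows.

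Of the 9 features, 8 entered the tests, which required values on 10 or more of 13 arrays, including 2 of 3 in each KMS12 window. The exception was GNG10 feature 24724_1, which had 3 values: 0.41 in series 1332 uninduced, 0.84 at its day 7 and 0.10 in series 2046 at day 4. The 8 features were averaged to 1 value per gene and array, and 4728 genes and unnamed features were tested in KMS12. Between 7140 and 14228 features carried a value on an array. IRF4 lay between -2.02 and -0.59 on the 10 induced arrays and between 0.13 and 0.24 on the 3 uninduced arrays, all as log2 ratios. In KMS12 the IRF4 mean was -1.32 at days 2-3 and -0.66 at days 4-5, with -0.76 on the day 7 array. From days 2-3 to days 4-5 IRF4 thus also moved nearer to 0, by 0.56, 1.14 and 0.29 in series 1332, 1332b and 2046. The lowest correlation between arrays was -0.33, between SKMM1 and series 2046 uninduced, which are different conditions; since the labels state the dyes, the sign was left as given.

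**Figure D1:**
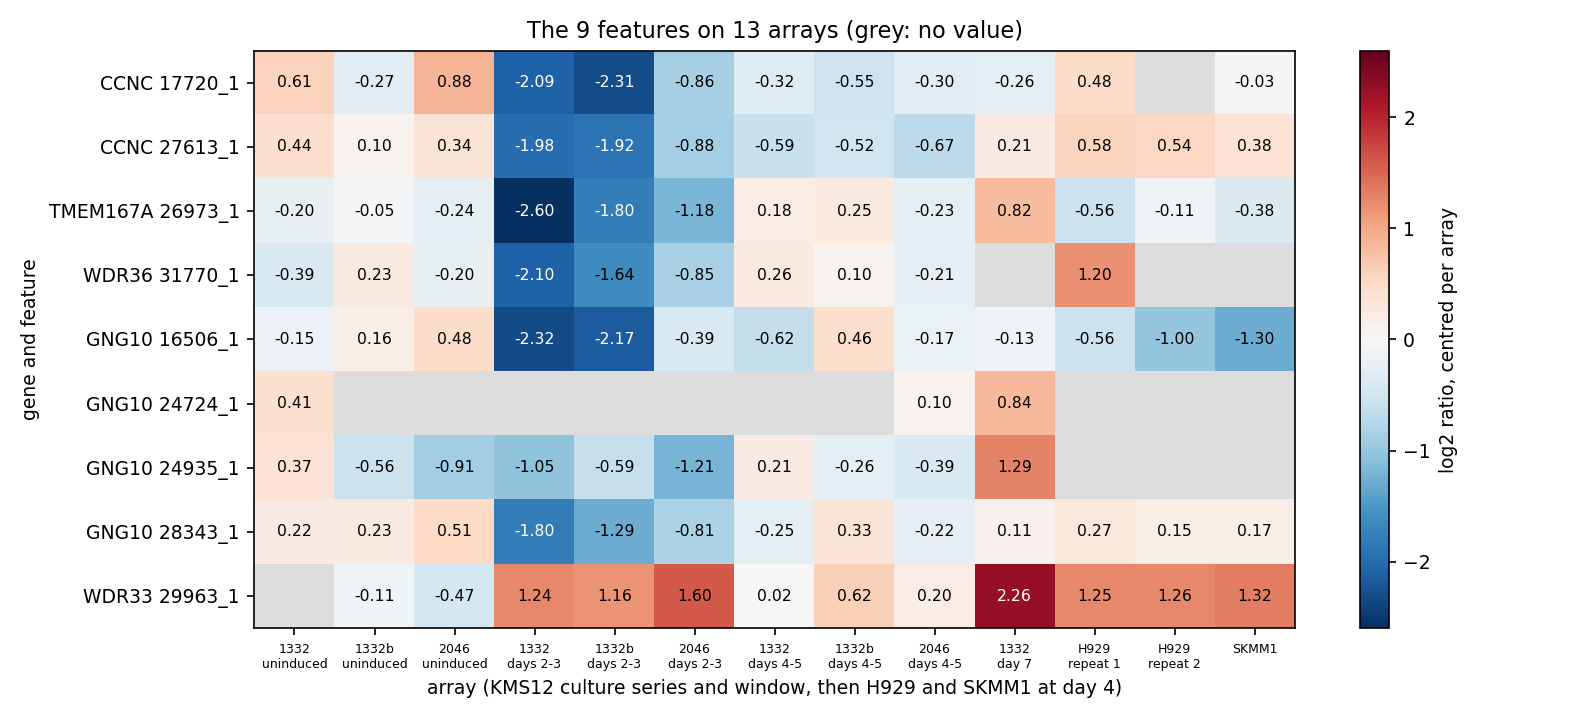
Log2 ratios of the 9 features (rows) on the 13 arrays (columns), IRF4 hairpin over luciferase hairpin, centred on the median of each array; blue is below 0, red above 0, and grey has no value. The days 2-3 columns are blue for every measured feature of CCNC, TMEM167A, WDR36 and GNG10, while the WDR33 row is red at days 2-3, at day 7 and in H929 and SKMM1.

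CCNC was the gene of this set with the lowest early difference. Its log2 ratio was 0.52, -0.09 and 0.61 in series 1332, 1332b and 2046 before induction, -2.04, -2.12 and -0.87 at days 2-3, -0.46, -0.53 and -0.49 at days 4-5, and -0.02 on the day 7 array. As a share of the luciferase culture this was 24.4%, 23.1% and 54.8% at days 2-3, and 73.0%, 69.1% and 71.3% at days 4-5. All 3 arrays at days 2-3 lay below every uninduced array and below every array at days 4-5. The days 2-3 mean was -1.67 ± 0.70 (SD, n = 3) and the uninduced mean 0.35 ± 0.38 (SD, n = 3), a difference of -2.02. At days 4-5 the mean was still 0.84 below the uninduced mean, so that 41.5% of the early difference was left. The 2 CCNC features gave -2.16 and -1.88 for the early difference, and they never lay more than 0.54 apart on an array that measured both.

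TMEM167A showed the largest return. Its log2 ratio was -0.20, -0.05 and -0.24 before induction, -2.60, -1.81 and -1.18 at days 2-3, 0.18, 0.25 and -0.24 at days 4-5 and 0.82 at day 7, with the series in the order 1332, 1332b and 2046. The days 2-3 arrays did not overlap with either neighbouring window, while the days 4-5 arrays overlapped with the uninduced ones. The days 2-3 mean was -1.86 ± 0.71 (SD, n = 3) and the uninduced mean -0.16 ± 0.10 (SD, n = 3), a difference of -1.70. From days 2-3 the mean was 1.93 higher at days 4-5, which placed it 17th from the top among 4728 genes.

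WDR36 took the same course. Its log2 ratio was -0.39, 0.23 and -0.20 before induction, -2.10, -1.64 and -0.85 at days 2-3, and 0.26, 0.10 and -0.21 at days 4-5, in the order 1332, 1332b and 2046. There was no value at day 7. The days 2-3 mean was -1.53 ± 0.63 (SD, n = 3), against -0.12 ± 0.32 (SD, n = 3) uninduced, a difference of -1.41. The days 4-5 mean was 0.05 ± 0.24 (SD, n = 3), 0.17 above the uninduced mean, and the ranges of these 2 windows overlapped.

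GNG10 averaged 0.15, -0.06 and 0.03 before induction, -1.72, -1.35 and -0.80 at days 2-3, -0.22, 0.18 and -0.26 at days 4-5 and 0.43 at day 7 on the log2 scale. The days 2-3 mean of -1.29 ± 0.46 (SD, n = 3) lay 1.33 below the uninduced mean of 0.04 ± 0.10 (SD, n = 3), and at days 4-5 10.4% of this difference was left. Its 3 tested features differed. For the early difference 16506_1 gave -1.79, 28343_1 gave -1.62 and 24935_1 gave -0.58. Feature 24935_1 lay at -1.05, -0.59 and -1.21 at days 2-3, but at 0.37, -0.57 and -0.91 before induction, so the 2 groups of this feature overlapped. RefSeq also lists a read-through transcript, DNAJC25-GNG10, and a pseudogene, GNG10P1, and the clones on the array were not matched to sequence here, so the GNG10 values are uncertain.

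WDR33 was the raised gene. Its log2 ratio was -0.11 in series 1332b and -0.47 in series 2046 before induction, with no value in series 1332, then 1.24, 1.16 and 1.60 at days 2-3 and 0.02, 0.62 and 0.20 at days 4-5 in the order 1332, 1332b and 2046. The day 7 array of series 1332 gave 2.26, or 479% of the luciferase culture, which was the highest WDR33 value in the study. The days 2-3 mean was 1.34 ± 0.24 (SD, n = 3), against -0.29 ± 0.25 (SD, n = 2) uninduced, a difference of 1.62, and the groups did not overlap. Within series 1332 the ratio was thus high at day 3, near 0 at day 5 and high again at day 7, with 1 array for each day. The name of the set, genes changed only early, therefore does not describe WDR33. It does not fully describe CCNC either, since 41.5% of the CCNC early difference was left at days 4-5.

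**Figure D2:**
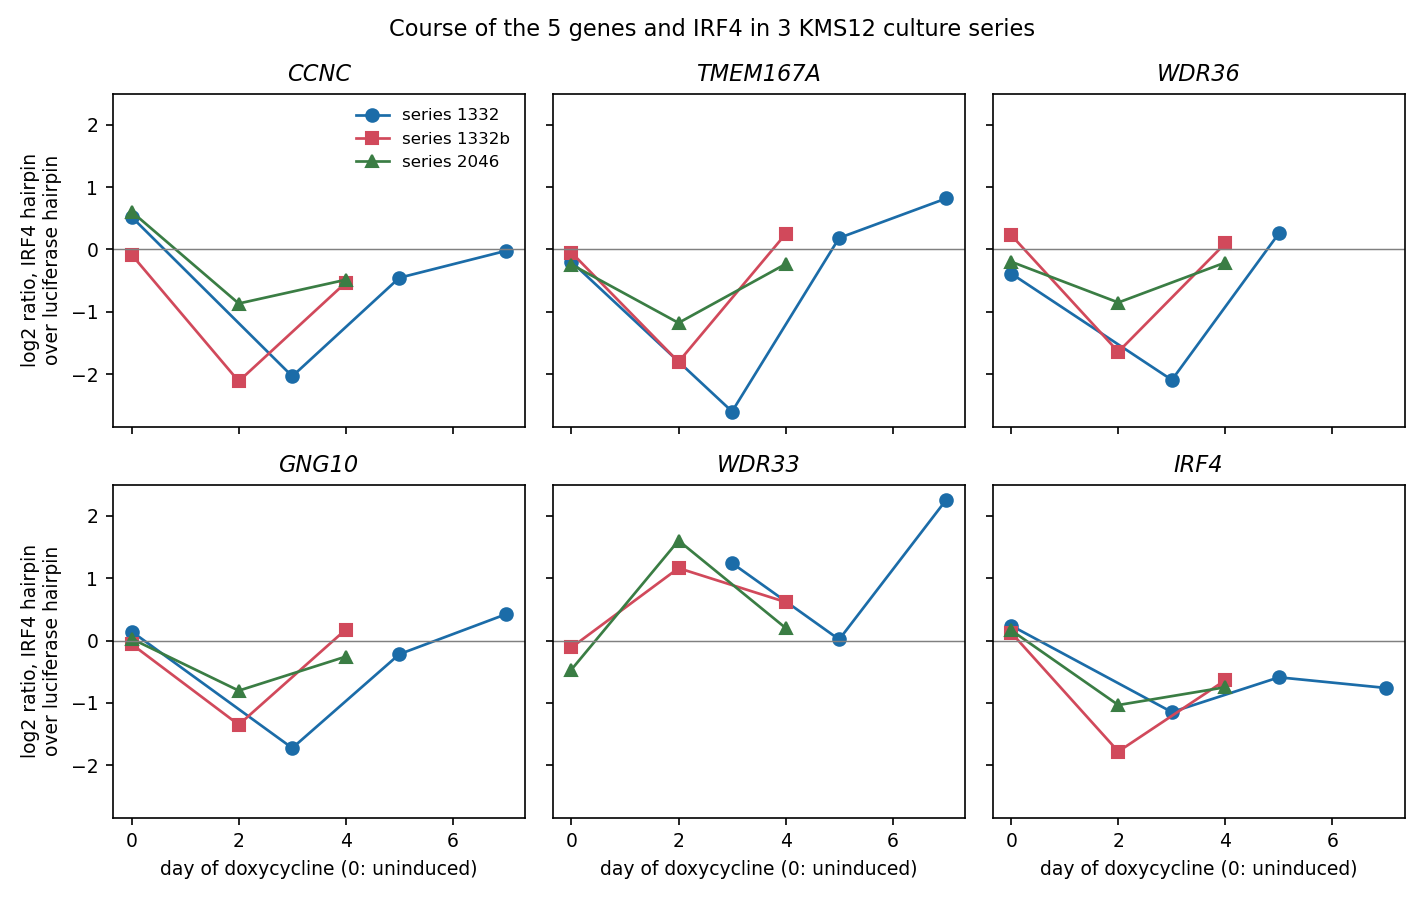
Log2 ratio (IRF4 hairpin over luciferase hairpin) against the day of doxycycline for the 5 genes and IRF4 in KMS12; each line is 1 culture series with 1 array per day, and day 0 is the uninduced culture. CCNC, TMEM167A, WDR36 and GNG10 are lowest at day 2 or 3 in every series, and WDR33 stands at 2.26 on the day 7 array.

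In the steps that chose them, all 5 genes had groups that did not overlap. For comparison, 16.9% of the 4728 genes lay lower at days 2-3 than uninduced without overlap and 16.3% lay higher (33.2% together). From days 2-3 to days 4-5, 12.4% of all genes lay higher without overlap and 9.84% lay lower (22.2% together). The full course of the lowered genes, below uninduced and then back above days 2-3 without overlap in either step, was shared by 354 genes (7.49%), and the mirror course of WDR33 by 266 (5.63%). In size, CCNC had the 21st lowest early difference of 4728 genes, TMEM167A the 48th, WDR36 the 142nd and GNG10 the 172nd, while WDR33 had the 13th highest. Over all genes the medians were 0.05 for the early difference and 0.02 for the later one. All differences are relative to the median gene, which without centring would lie 0.20 lower at days 2-3 than uninduced. The subtracted median was 0.28 on the uninduced array of series 2046, but 0.025 and 0.024 on those of series 1332 and 1332b. At days 2-3 it lay between -0.125 and -0.063.

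**Figure D3:**
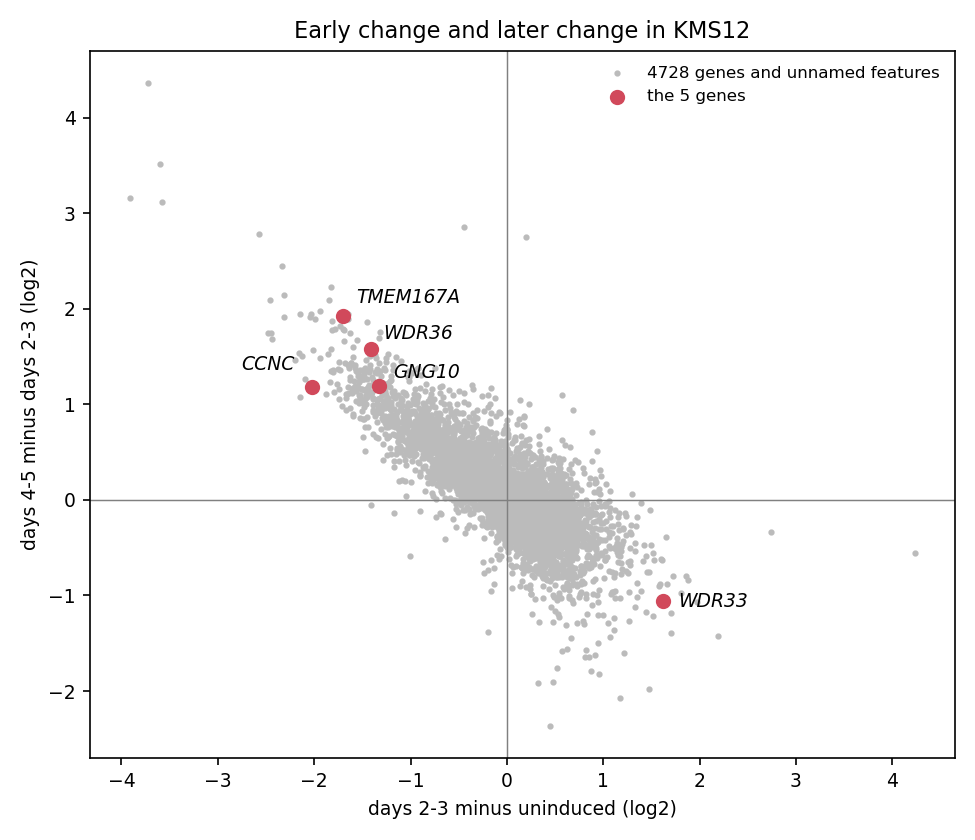
The difference of days 2-3 minus uninduced (x axis, log2) against days 4-5 minus days 2-3 (y axis, log2) for 4728 genes and unnamed features (grey), with the 5 genes in red. Both axes share the days 2-3 arrays, which by itself tilts the cloud; the 4 lowered genes lie at its upper left and WDR33 at its lower right, each with other genes beside it.

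The early difference varied with the culture series. At days 2-3 the 4 lowered genes were all least lowered in series 2046, where the early difference within the series was -1.47 for CCNC, -0.94 for TMEM167A, -0.65 for WDR36 and -0.83 for GNG10. In series 1332 the same differences were -2.56, -2.40, -1.71 and -1.87, and in series 1332b -2.03, -1.75, -1.87 and -1.29. WDR33 ran the other way, with 2.07 in series 2046 and 1.27 in series 1332b. The early difference of IRF4 itself was -1.39 in series 1332, -1.91 in 1332b and -1.20 in 2046. Its part in the values of the other genes was not tested. Beside this, the spread of all genes was narrower on the series 2046 array at days 2-3 (SD 0.45) than on the 1332 and 1332b arrays (0.71 and 0.76). Within each array, CCNC stood at percentile 1.74, 1.73 and 2.55 of all genes at days 2-3, TMEM167A at 0.738, 3.06 and 1.27, WDR36 at 1.62, 4.54 and 2.70, and GNG10 at 2.69, 8.20 and 3.24, in the order 1332, 1332b and 2046. By rank within the array, TMEM167A, WDR36 and GNG10 were thus lower in series 2046 than in 1332b, and CCNC was not. Each series has 1 array in the window, so the differences between series have no replicate.

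The arrays that played no part in the choice were those of H929, SKMM1 and KMS12 at day 7. WDR33 was high on all of them. Its log2 ratio was 1.25 and 1.26 in H929, a mean of 239% of the luciferase culture, then 1.33 in SKMM1 and 2.26 at day 7. Above 0 on all 4 arrays were 15.5% of the 3134 genes measured on each, and the lowest of the 4 WDR33 values was the highest such value among them. The H929 mean against 0 was 1.25 (SE 0.13, 95% interval 0.90 to 1.61, n = 2 arrays), the 6th highest of 3465 genes tested and the 13th by p. It did not pass (limma adjusted p = 0.0612). No gene passed in this fit of 3 arrays (0%), although 1233 (35.6%) had an unadjusted p under 0.05. IRF4 itself, with an H929 mean of -1.88, had the same adjusted p. Its unadjusted limma p was 8.9e-05, the smallest of all genes tested, against 4.2e-04 for WDR33. Under the 4 alternatives fitted on the same 3 arrays WDR33 passed in 3, with limma adjusted p from 0.0407 to 0.0584. Under the 4 that also drew on KMS12 arrays the adjusted p ran from 0.0148 to 0.282; the choice of the gene used those arrays, so these are no independent support. No dye was swapped, so a ratio against 0 includes any dye effect of the feature, whose part was not tested. H929 and SKMM1 had no uninduced array. For every gene their ratios therefore also include any difference between the 2 hairpin cultures before doxycycline. On the uninduced KMS12 arrays that measured it, WDR33 lay at -0.11 and -0.47.

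CCNC was not low in the other lines. Its log2 ratio was 0.53 and 0.54 in H929, 0.17 in SKMM1 and -0.02 at day 7. H929 repeat 2 measured feature 27613_1 alone, at 0.537, while repeat 1 gave 0.478 for 17720_1 and 0.584 for 27613_1. In SKMM1 the features 17720_1 and 27613_1 lay at -0.029 and 0.375, and at day 7 at -0.255 and 0.212, so their signs differed on both arrays. The CCNC gene value lay above 0 on both H929 arrays and the SKMM1 array, as did WDR33 and 34.1% of 3465 genes. In H929 both CCNC and WDR33 also lay above KMS12 at days 4-5 without overlap, as did 20.4% of 3796 genes. For CCNC the H929 mean of 0.53 (SE 0.13, 95% interval 0.18 to 0.89) did not pass (limma adjusted p = 0.0807). On features measured on all 13 arrays it was 0.59 and passed (limma adjusted p = 0.0487), and over the 5 alternatives fitted on the 3 arrays of H929 and SKMM1 the adjusted p ran from 0.0487 to 0.110. The 2 uninduced KMS12 arrays of series 1332 and 2046 reached 0.52 and 0.61. In descending order the CCNC group means were 0.53 in H929, 0.35 uninduced, 0.17 in SKMM1, -0.02 at day 7, -0.49 at days 4-5 and -1.67 at days 2-3. The first 4 lay within the range of the uninduced arrays, and the days 4-5 and days 2-3 arrays lay below it.

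TMEM167A had log2 ratios of -0.56 and -0.11 in the H929 arrays, repeat 1 and repeat 2, and -0.38 in SKMM1. Its H929 mean of -0.33 (SE 0.17, 95% interval -0.79 to 0.13) did not pass (limma adjusted p = 0.233). At day 7 of series 1332 the gene stood at 0.82, with 295 of the genes on that array higher. In descending order the group means were 0.82 at day 7, 0.07 at days 4-5, -0.16 uninduced, -0.33 in H929, -0.38 in SKMM1 and -1.86 at days 2-3, and from days 4-5 to SKMM1 each group overlapped with the next in range.

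GNG10 depended on the feature in the other lines. Feature 16506_1 lay at -0.56 and -1.003 in H929 and at -1.30 in SKMM1, and feature 28343_1 at 0.27, 0.15 and 0.17 on the same arrays, while 24935_1 had no value on them. The gene mean in H929 was -0.28 (SE 0.15, 95% interval -0.69 to 0.12), which did not pass (limma adjusted p = 0.241). Tested on its own, 16506_1 averaged -0.78 (limma adjusted p = 0.0538) and 28343_1 0.21 (limma adjusted p = 0.339). These 2 features thus had the same sign on every array at days 2-3 and opposite signs on every H929 and SKMM1 array. In descending order the gene's group means were 0.43 at day 7, 0.04 uninduced, -0.10 at days 4-5, -0.28 in H929, -0.56 in SKMM1 and -1.29 at days 2-3. The day 7 value rests on 24935_1, which stood at 1.29 there. Over 16506_1 and 28343_1 alone, the features measured on every array, the mean was -0.01 at day 7 and 0.24 uninduced, so the top of the order turned.

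WDR36 could not be tested in H929, since 1 of the 2 arrays measured it and SKMM1 did not. That array, repeat 1, gave 1.20, or 229% of the luciferase culture, with 11 genes on the array higher. Its means elsewhere were 0.05 at days 4-5, -0.12 uninduced and -1.53 at days 2-3.

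**Figure D4:**
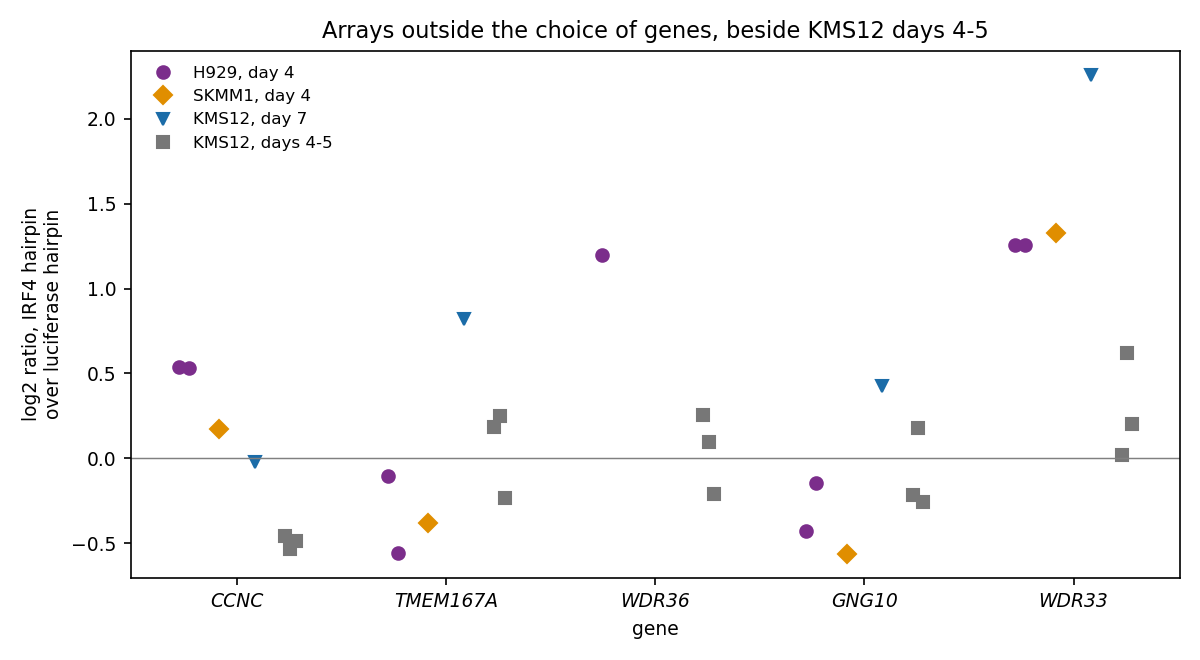
Log2 ratio (IRF4 hairpin over luciferase hairpin) of each gene on the arrays of H929, SKMM1 and KMS12 at day 7, which did not enter the choice of genes, with KMS12 at days 4-5 in grey; each point is 1 array. All 4 WDR33 values outside days 4-5 lie at or above 1.25, both CCNC values of H929 lie above the 3 grey points, and WDR36 has a single H929 value.

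H929 and SKMM1 were also compared with each other for the same hairpin and day. The H929 minus SKMM1 difference was 0.36 for CCNC (95% interval -0.26 to 0.98), 0.28 for GNG10 (-0.42 to 0.97), 0.05 for TMEM167A (-0.75 to 0.84) and -0.07 for WDR33 (-0.69 to 0.55), with limma adjusted p from 0.696 to 0.968. None of the 3465 genes was called by limma (0%), and 302 (8.72%) reached an unadjusted p under 0.05. The lone SKMM1 array was assumed to vary like the H929 arrays.

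Over all arrays the 4 lowered genes followed one another. The Pearson correlation over the 13 arrays was 0.94 between TMEM167A and GNG10, 0.79 between CCNC and GNG10 and 0.74 between CCNC and TMEM167A, and with WDR36 over 10 arrays it lay between 0.82 and 0.84. With WDR33, over 9 to 12 arrays, all 4 lay between -0.39 and -0.16. These values describe the arrays, which share lines, series and the days 2-3 arrays that chose the genes.

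Among 1702 named genes measured on all 13 arrays, the 3 most like CCNC were UBE2J1, a ubiquitin-conjugating enzyme of the endoplasmic reticulum (r = 0.96), PM20D2 (0.91) and MCFD2, the partner of the cargo receptor LMAN1 (0.91). UBE2J1 had an early difference of -0.70 and PM20D2 one of -1.79. For TMEM167A they were LARP4, which binds poly(A) (0.95), GNG10 itself (0.94) and SGO2, a protector of centromeric cohesion (0.94). For GNG10 they were BCLAF1 (0.97), CEBPZ (0.96) and KTN1, the kinesin receptor kinectin (0.94). CEBPZ had an early difference of -2.31, lower than that of any of the 5 genes, and lay 1.91 higher at days 4-5 than at days 2-3. For WDR36, over 10 arrays and 1894 genes, they were EXOC5, a subunit of the exocyst (0.93), THOC1, a subunit of the mRNA export complex THO (0.91), and ARHGAP11A (0.90). WDR33 had no such close neighbour over 12 arrays and 1742 genes. The 3 nearest were MUTYH, a DNA glycosylase (0.81), CD1D, which presents lipid antigens (0.79), and the splicing factor U2AF2 (0.78), with early differences of 0.56, 0.88 and 0.37.

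The partners of each gene were examined by list for days 2-3 against uninduced, where none of 4728 genes passed in limma (0%) and 1222 reached an unadjusted p below 0.05, 765 of them lower. No gene of any list passed. With the days 2-3 array of series 2046 left out, 653 of the 4728 passed.

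Of 32 Mediator genes 9 were measured, with a median early difference of 0.07 (4 below 0), against 0.05 over all genes. The smallest p belonged to MED23 (1.26, SE 0.39, limma adjusted p = 0.0950), MED13 (-0.98, SE 0.40), MED1 (-0.72, SE 0.32) and CDK19, a kinase that cyclin C activates (0.63, SE 0.31). MED23 lay above uninduced without overlap and also stood at 1.02 in SKMM1 and 1.26 at day 7. Of the 9 measured genes, 1 lay below uninduced without overlap and 2 lay above, against 16.9% and 16.3% of all genes. The full course of the lowered genes was taken by 1 of the 9, against 7.49% of all genes. Of the other cyclins and transcription kinases, 19 of 24 were measured, with a median of -0.15 and 15 below 0. CCNA2, the cyclin of S phase and G2, lay at -1.08 (SE 0.27, limma adjusted p = 0.0764), CCNG1 at -1.52 (SE 0.40, 0.0795), MNAT1, which assembles the CDK7 kinase, at -0.84 and CCNL1 at -0.64. CCNG1 was low in the other lines too, with -1.67 in H929 and -2.91 in SKMM1, where CCNC was not.

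Of 45 genes of the small subunit processome, 6 were measured, with a median of -0.18 and 4 below 0. DDX21, a nucleolar RNA helicase, lay at -1.59 (SE 0.39, limma adjusted p = 0.0764) and was 1.25 higher at days 4-5 than at days 2-3. Its arrays did not overlap in either step, a course taken by 1 of these 6 genes and by 7.49% of all genes. Among the other lists, 1 gene each took it for Mediator, G proteins and Golgi transport, and 0 for cyclins and for 3′ end processing. FBL, the methyltransferase fibrillarin, stood at 0.29, NCL, nucleolin, at -1.01 and FCF1 at 0.35. Of 26 genes of mRNA 3′ end processing 5 were measured, with a median of -0.12 and 3 below 0. PPP1CA stood at 0.29, RBBP6 at -0.31, CSTF3 at 0.41 and PAPOLG, a poly(A) polymerase, at -0.37.

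Of 31 other G protein genes 12 were measured, with a median of 0.21 and 4 below 0. GNAI3, an inhibitory alpha subunit, lay at -1.32 (SE 0.33, limma adjusted p = 0.0764) and was 0.95 higher at days 4-5 than at days 2-3, close to the values of GNG10. GNB2, a beta subunit, stood at 0.48, GNAZ at 1.02 and GNB5 at 0.58. Of 64 genes of transport between the endoplasmic reticulum and the Golgi 18 were measured, with a median of 0.01 and 9 below 0. MCFD2 lay at -0.95 (SE 0.26), LMAN1 at -1.24 (SE 0.35, limma adjusted p = 0.0819), the giant Golgi protein GOLGB1 at -1.04 and TMEM167B, the paralogue of TMEM167A, at -0.70. In this list 4 of 18 genes, those just named, lay below uninduced without overlap and 3 lay above, against 16.9% and 16.3% of all genes. TMEM167B was 0.70 higher at days 4-5 than at days 2-3, while its 1 value in H929 was -0.16.

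For days 4-5 against days 2-3, none of 4728 genes passed in limma (0%) and 857 reached an unadjusted p below 0.05. With that same array left out, 360 passed.

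Markers of other cell types were read in the same window, and none passed the test. At days 2-3 all 6 measured markers of B cells at earlier stages lay above uninduced (median 0.63), as did 6 of 6 T cell markers (0.38), 4 of 4 erythroid or stromal markers (0.50) and 1 of 2 myeloid markers (0.02), while 6 of 8 plasma cell markers lay below (-0.43). Over all genes 46.2% lay below 0. At an unadjusted limma p under 0.05 were 5 of the B cell markers and 1 of the T cell, all higher. The plasma cell markers had 4, all lower, and the erythroid or stromal and the myeloid markers 0 each. Of all 4728 genes, 457 were higher and 765 lower at that p. The B cell medians of single arrays ran from 0.12 to 0.66 at days 2-3 and from -0.55 to -0.07 uninduced, and the plasma cell medians from -0.38 to -0.20 at days 2-3 and from -0.01 to 0.10 uninduced. Ratios give no level, so whether a marker was absent could not be read, and the part of these shifts in the values of the 5 genes was not tested.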

How the data were processed

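The authors deposited 1 table of log ratios, taken here as log2 from the range of its values (-9.78 to 7.51), for 15246 features on 13 two-colour spotted cDNA arrays (Lymphochip). The base of the logarithm, the normalization and the rule for blank spots were not given in the sources used here. Intensities were not used here. Of the features, 10169 had 1 gene symbol in the platform annotation, 4 several and 5073 none; symbols were brought up to date by gene identifier with a RefSeq table. The median of each array was subtracted, taken over the 6879 features with a value on at least 10 arrays and on 2 of the 3 arrays of each KMS12 window, and features of a gene were averaged.

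Two-sided tests used lmFit and eBayes of limma 3.58.1 under R 4.3.3, Benjamini-Hochberg adjusted over all genes tested, threshold 0.05. KMS12 windows were fitted as group means over all 13 arrays. H929 was fitted with SKMM1 alone, on 3465 genes measured on all 3 arrays. The KMS12 arrays were left out because they took part in the choice of the 5 genes. With the spread from all 13 arrays, the SE in H929 was 0.27 for CCNC, 0.27 for TMEM167A, 0.21 for GNG10 and 0.19 for WDR33. On the 3 arrays alone it was 0.13, 0.17, 0.15 and 0.13, so the intervals given here are the narrower ones. The SD of the 2 H929 arrays was 0.0042 for CCNC and 0.0014 for WDR33. The SEs of these 2 genes thus come mostly from the spread of other genes, which limma shares between genes. Scripts were tested on simulated data. The members and lists were chosen with earlier results of these data known. Named were IRF4, the 5 genes, the 3 genes nearest to each by Pearson correlation, and up to 4 genes of each partner list with the smallest p at days 2-3. Alternatives were centring, filters, single features, a series block, the fit of all arrays and leaving out arrays.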

Additional observations from a re-analysis of the deposited data

Results flagged for a closer look

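CCNC had opposite signs in 2 cell lines: both H929 arrays at day 4 lay above 0 and all 3 KMS12 arrays at days 4-5 lay below 0. The H929 mean of 0.53 minus the KMS12 mean of -0.49 was 1.025 on the log2 scale. The difference was not tested, since the KMS12 arrays took part in the choice of the gene. H929 repeat 2 measured 1 of the 2 CCNC features. Over all genes, 20.4% of 3796 lay higher in H929 than at KMS12 days 4-5 without overlap.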

How the results depend on the processing

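For the 5 genes the early and later differences in KMS12 kept their sign under every alternative run. The genes were chosen on these differences in the same arrays, so a kept sign is no support for them. Without centring, the early difference of WDR33 was 1.38 in place of 1.62. With single features of GNG10 the early difference lay between -1.79 and -0.58. For days 2-3 against uninduced, 339 genes passed without centring (12 higher, 327 lower) and 170 on features measured on all 13 arrays, against 0; leaving out 1 array gave 0 to 653 genes, and 0 to 360 for days 4-5 against days 2-3. With the culture series as a replicate block, 0 genes passed in both; same-series deviations correlated from -0.113 to 0.36 and 2 of 9 pairs lay under 0.1, so the pairing is not settled.

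For H929 against 0, where 0 passed, 206 genes passed with centring by class, 356 on features measured on all 13 arrays, 411 without the filter, 439 as single features, 301 with the spread from all 13 arrays, 134 against the uninduced mean, and 5 to 19 with 1 H929 array. WDR33 passed with centring by class (1.25), without the filter (1.20), as a single feature (1.25), with all 13 arrays (1.25) and against the uninduced mean (1.54); the last 2 draw on KMS12 arrays that chose the gene and are no independent support. It had no value on 1 array, so features measured on all 13 gave none. CCNC passed on features measured on all 13 arrays (0.59). GNG10 turned to 0.21 for feature 28343_1. Between H929 and SKMM1, 1 gene passed with the spread from all 13 arrays and 0 to 1 with 1 H929 array, where TMEM167A turned to -0.18 without repeat 2. The cause of these changes was not tested. Signal over background is unknown here, so how far dim spots limit these ratios could not be given.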
